A study of Schizosaccharomyces pombe with 2 samples.

Results

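The introns described here are 35 coding introns of the fission yeast Schizosaccharomyces pombe whose transcripts were mostly counted as unspliced, out of 1144 genes in the files. They were chosen by the unspliced percentage, the premature count of a gene divided by the sum of its mature and premature counts. A gene was taken when that sum was 50 or more in each library, the percentage was over 50% in both libraries, and RefSeq held exactly 1 intron of 20 nt or more, inside the coding sequence. Genes whose symbols begin with rpl, rps, mug, meu, mei, mde, mfr, bqt, dmc, rec or spo, mostly names of ribosomal protein and meiotic genes, were left out, and so were med11, lea1, syf2 and prs5. Such genes under other symbols were kept, so the comparison described next still holds the ribosomal stalk protein gene rpp0 and the meiotic gene mcp7, for example. The 35 genes were 4.05% of the 864 genes with enough counts and 4.94% of the 709 that met every other part of the rule. The remaining 674 of those 709 are called the comparison introns. Another 45 genes were over 50% in both libraries but outside the rule, 17 with no or several RefSeq introns, 13 with an intron in a UTR and 15 by their symbols. That these genes lie outside meiosis rests on symbols alone. RefSeq gives SPAC16E8.05c the product name mde1, which carries a prefix the rule leaves out, but lists it under its systematic ID, and mfm3 encodes a mating pheromone precursor.

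The counts came from multiplexed primer extension sequencing (MPE-seq). In it, pooled gene-specific primers near introns start reverse transcription, a design meant to direct reads to splice junctions and intron ends. A single group was analysed, 2 libraries of total RNA (replicates 1 and 2) from a strain labelled Bioneer wild type, with no other allele and no treatment named. Each was grown from a single colony to log phase in YES, a rich medium, at 30 °C and an OD600 of 0.8. Whether separate colonies or cultures were used is not stated in the labels, so p-values and the spread between the libraries may be technical only.

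In fission yeast the U1 snRNP pairs with the 5′ splice site, the branch point adenosine attacks that site, and the 3′ splice site is then joined. Most introns of this yeast are short and begin with GTA. An intron left in the mRNA usually shifts the reading frame or brings in a stop codon, and such mRNA can be degraded in the nucleus or by nonsense-mediated decay. A transcript counted as unspliced may be one not yet spliced, one that is never spliced at that place, or a stable isoform, and the counts do not separate these.

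Replicate 1 held 5796068 exonic counts and replicate 2 held 10009017. Mature counts were 634306 and 1194460, and premature counts 53090 and 82204, so exonic counts were by far the largest class. The 35 genes held 1.13% of exonic counts in replicate 1 and 1.03% in replicate 2. Of all premature counts they held 9.49% in replicate 1, with a 95% Wilson interval from 9.25 to 9.75. In replicate 2 that share was 9.30%, with an interval from 9.11 to 9.50. Their share of mature counts was 0.318% (0.305 to 0.333) and 0.264% (0.255 to 0.273). The rule chose genes with more premature than mature counts, so a larger share of premature than of mature counts follows from it. These shares are descriptions with no test. Their intervals, like all others below, cover counting error only.

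The introns of 8 of the 9 genes with means above 90% are shown first, so that the splice sites of the least spliced introns can be read beside their counts; the ninth, of ago1, is long and its ends are shown further on. Each is printed 5′ to 3′ from the RefSeq genome ASM294v3, at the position of the annotated intron of the matching gene ID. The authors' build is not given in the sources used here, and the files do not say which interval was counted. Capitals mark the first 6 bases, the last 3 bases and, where there is one, the last match to a branch point motif spelled CTAAC or CTAAT or CTGAC or CTGAT, searched on the sense strand only, at least 5 bases from either end.

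SPBC409.08, chrII:1152174-1152215, plus strand: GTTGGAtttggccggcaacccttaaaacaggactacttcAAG
SPBC3D6.16, chrII:1296964-1297021, plus strand: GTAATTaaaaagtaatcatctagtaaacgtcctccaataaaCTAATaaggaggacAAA
trp663, chrIII:1658546-1658634, minus strand: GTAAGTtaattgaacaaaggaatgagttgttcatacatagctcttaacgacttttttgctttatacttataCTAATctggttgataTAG
SPAPB17E12.09, chrI:1281061-1281106, plus strand: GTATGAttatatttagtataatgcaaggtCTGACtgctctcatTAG
SPAC16E8.05c, chrI:3508051-3508093, minus strand: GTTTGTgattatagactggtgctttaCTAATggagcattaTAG
mfm3, chrII:700477-700543, plus strand: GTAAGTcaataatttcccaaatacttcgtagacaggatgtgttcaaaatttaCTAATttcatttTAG
SPAC922.03, chrI:5477884-5477947, plus strand: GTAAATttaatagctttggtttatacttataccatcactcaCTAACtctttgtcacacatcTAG
fmd3, chrIII:1598531-1598569, minus strand: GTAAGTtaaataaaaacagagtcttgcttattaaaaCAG

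For 3 genes no mature count was recorded in either library. SPBC409.08, which RefSeq names a spermine family transporter, had 198 premature counts in replicate 1 and 299 in replicate 2. With no mature count, unspliced percentages down to 98.5% in replicate 1 and 99.0% in replicate 2 remain possible, if 3 counts are taken as the limit that a count of 0 allows. The 95% Wilson intervals, used for the other genes, reach lower, to 98.1% and 98.7% for SPBC409.08. The intron of SPBC409.08 began with GTTGGA, which began none of the 674 comparison introns, and held none of the branch motifs. SPBC3D6.16, of unknown function, had 51 and 92 premature counts, which by the 3-count limit allow percentages down to 94.1% and 96.7% (Wilson 93.0% and 96.0%). Its annotated intron ended in AAA and was the only intron among the 35 without AG at its 3′ end, while all 674 comparison introns ended in AG. The ion channel gene trp663 had 67 and 80 premature counts, which by the 3-count limit allow percentages down to 95.5% and 96.3% (Wilson 94.6% and 95.4%). In contrast to the other 2, its intron began with GTAAGT, the most frequent start among the comparison introns. It also held the branch motif CTAAT and ended with the usual TAG. Genes on the opposite strand lie over the introns of all 3. They include a coding gene for trp663 (cid12) and for SPBC3D6.16 (SPBC30B4.09), and a non-coding RNA gene for SPBC409.08 (SPNCRNA.5042).

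Another 6 genes had means above 90%. SPAPB17E12.09, of unknown function, had no mature count among 76 in replicate 1 and 3 among 111 in replicate 2, so that it was 100% and 97.3% unspliced (intervals 95.2 to 100 and 92.4 to 99.1). SPAC16E8.05c was 97.5% unspliced in replicate 1 and 98.1% in replicate 2, with 2 mature counts in each. The M-factor pheromone gene mfm3 had no mature count among 59 in replicate 1 and 5 among 101 in replicate 2, and stood at 97.5% ± 3.50 (SD, n = 2). Its paralog mfm2 had 28 and 35 mature counts and no premature count in either library, under the minimum of 50. Whether reads were divided between these paralogs in the counting was not tested, so the values of both are uncertain. For the argonaute gene ago1, which acts in RNA interference and heterochromatin, 14 mature counts stood against 213 premature in replicate 1 and 19 against 396 in replicate 2, or 93.8% and 95.4%. SPAC922.03, named a 1-aminocyclopropane-1-carboxylate deaminase, was at 93.6% from 8 mature and 117 premature counts in replicate 1, and at 93.3% from 11 and 152 in replicate 2. The formaldehyde dehydrogenase gene fmd3 was 95.7% and 89.7% unspliced, from 3 and 11 mature counts.

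**Figure D1:**
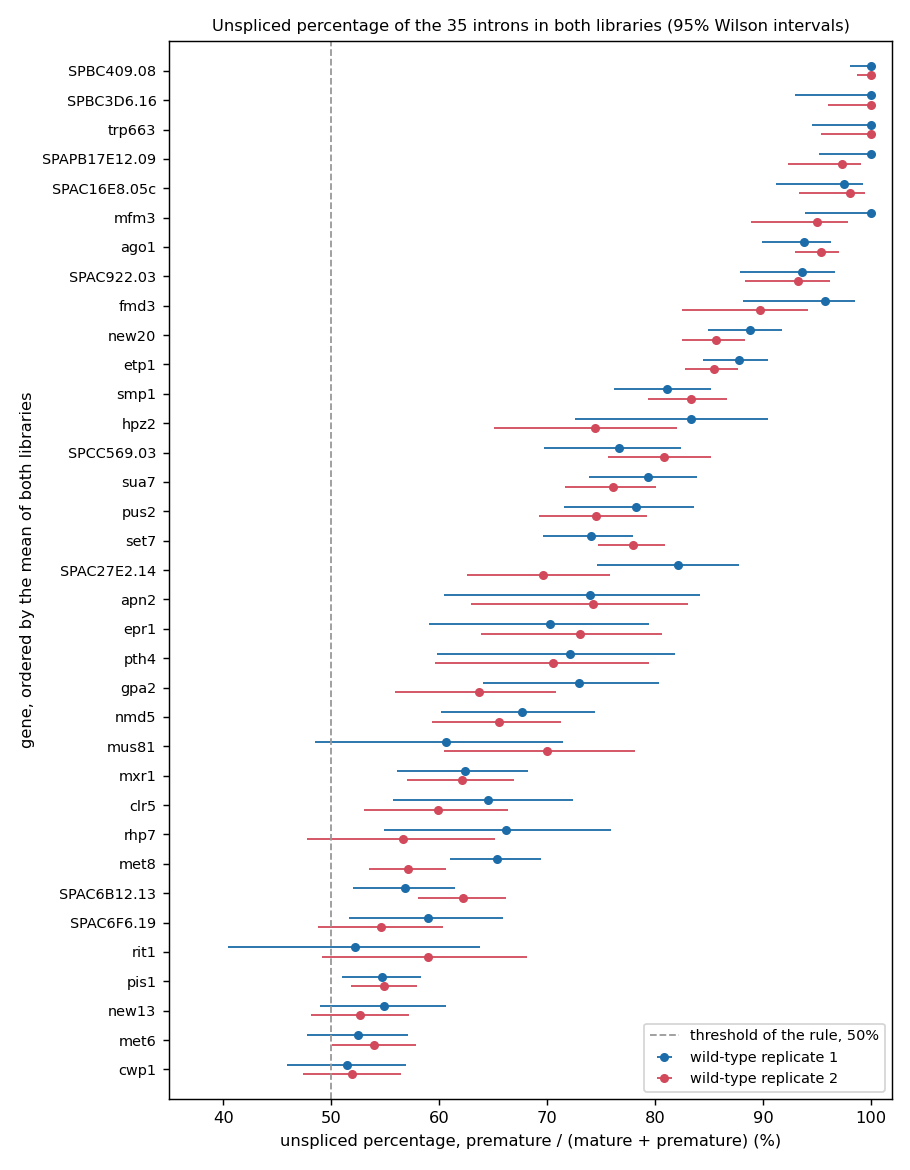
Unspliced percentage (x axis, %) of each of the 35 genes (y axis, ordered by the mean of both libraries) in wild-type replicate 1 (blue) and replicate 2 (red), with 95% Wilson intervals that cover counting error only. The dashed line is the 50% threshold of the rule. Values run from 51.4% in cwp1 to 100%, and in 28 genes both intervals lie wholly above the threshold.

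The means spread from 51.7% to 100%. They were above 90% in 9 genes, above 70% and up to 90% in 12, and up to 70% in 14, and the median of the means was 75.9%. In 28 genes the Wilson interval lay above 50% in both libraries. It did so in 1 library only in 4 genes, met6, mus81, rhp7 and SPAC6F6.19. In 3 genes, rit1, new13 and cwp1, it did so in neither. The members nearest the threshold were cwp1, met6 and new13, at means of 51.7%, 53.2% and 53.8%. Just outside it lay the zinc transporter gene zip2 at 51.3% and 49.9% in replicates 1 and 2, the carrier gene odc1 at 48.9% in both, and noc12 at 51.3% and 48.7%. Intervals of genes on either side overlapped. Of the comparison introns, 8 were over 50% in replicate 1 only and none in replicate 2 only. These values chose the genes, so no test was made of them.

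Genes of metabolism and transport were 9 of the 35, at a median of 86.6%. The most counted of all 35 was pis1, the phosphatidylinositol synthase gene, with 319 mature against 385 premature counts in replicate 1 and 460 against 560 in replicate 2. Its percentages of 54.7% and 54.9% differed by less than the width of either interval (51.0 to 58.3 and 51.8 to 57.9). The mitochondrial gene etp1, for a monooxygenase and ferredoxin fused in 1 protein, was at 87.8% from 55 mature and 395 premature counts in replicate 1, and at 85.4% from 117 and 686 in replicate 2. The siroheme synthase gene met8, needed to reduce sulfite, was at 65.4% (61.0 to 69.5) in replicate 1 and 57.1% (53.5 to 60.7) in replicate 2. The homoserine O-acetyltransferase gene met6, on the path to methionine, was at 52.4% and 54.0%, and mxr1, which repairs oxidised methionine in proteins, at 62.4% and 62.1%. In met6 and mxr1 the intervals of both libraries overlapped, while in met8 replicate 1 was the higher and the intervals did not overlap.

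Genes that act on RNA, DNA or chromatin were 12 of the 35, at a median of 72.7%. The general transcription factor TFIIB gene sua7 was at 79.4% in replicate 1 (51 mature of 247 counts) and 76.2% in replicate 2 (93 of 390). The histone methyltransferase gene set7 was at 74.0% (109 mature of 420 counts) and 78.0% (147 of 668). The silencing factor gene clr5 was at 64.5% and 59.9%. Among DNA repair genes, the AP endonuclease gene apn2, which cuts at abasic sites, was at 74.0% and 74.3%, from 50 and 70 counts in all. The Holliday junction resolvase subunit gene mus81 was at 60.6% (48.5 to 71.5) and 70% (60.4 to 78.1), and the excision repair gene rhp7 at 66.2% (54.9 to 76.0) and 56.7% (47.7 to 65.2). These intervals overlap in both genes, and each gene had an interval that reached below 50% in 1 library. Among genes for tRNA and translation, the pseudouridine synthase gene pus2 was at 78.2% and 74.6% and the release factor gene pth4 at 71.3% ± 1.14 (SD, n = 2). The gene rit1, for an enzyme that modifies the initiator tRNA, was at 52.2% and 59.0%, and its intervals, 40.5 to 63.8 and 49.2 to 68.1, crossed 50% in both libraries. The G-patch RNA-binding protein gene SPAC6F6.19 was at 56.8% ± 3.07 and the zinc finger gene hpz2 at 78.9% ± 6.25.

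Genes of signalling, traffic and protein modification were 6, at a median of 67.5%, with mfm3 as the highest. The heterotrimeric G protein gene gpa2, which couples glucose sensing to cAMP in this yeast, was at 73.0% from 30 mature and 81 premature counts in replicate 1, and at 63.7% from 57 and 100 in replicate 2. The karyopherin gene nmd5, for a nuclear transport receptor, was at 67.7% and 65.6%, and epr1, for a receptor in the autophagy of endoplasmic reticulum, at 70.3% and 73.1%. The phosphatase inhibitor gene SPAC6B12.13 was at 56.8% (184 mature of 426 counts) and 62.2% (205 of 542). The prenyltransferase subunit gene cwp1, lowest of all 35, was at 51.4% and 51.9%, and its intervals, 45.9 to 57.0 and 47.4 to 56.5, crossed 50% in both libraries. For the remaining 8 genes RefSeq gave no role, and their median was 84.7%. Among these, new20 was at 88.8% and 85.7% from 322 and 558 counts, smp1 at 81.1% and 83.3% from 291 and 396, and new13 at 54.9% and 52.7% from 277 and 465. SPCC569.03 was at 76.6% and 80.8%. SPAC27E2.14 was at 82.2% (74.7 to 87.8) and 69.6% (62.6 to 75.8), the largest difference among the 35.

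Mature against premature counts were compared between the libraries for each gene with Fisher's exact test, two-sided, adjusted by Benjamini-Hochberg over 864 genes. Past an adjusted p of 0.05 were 0 of the 35 and 1.62% of all 864 genes. Without adjustment, 2 of the 35 had a p under 0.05, and 89 of the 864. These 2 were met8 at p = 0.00408 (adjusted 0.151) and SPAC27E2.14 at p = 0.0121 (adjusted 0.268) by the same exact test, both lower in replicate 2. The percentage was lower in replicate 2 in 19 genes, higher in 13 and equal in 3, and the libraries lay within 5 points of each other in 26. The median SD between libraries was 1.98 points, against 1.04 in the comparison introns, whose median percentage was 6.95%. With 50 to 704 counts a gene in replicate 1 and 70 to 1020 in replicate 2, differences of a few points were not detectable at this depth. This test compares 2 libraries with counting noise and says nothing of conditions.

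Exonic levels of most of these genes lay below the median of the comparison genes, a description across genes with no test. The rule did not use exonic counts themselves, but its minimum of 50 mature plus premature counts is tied to them. A gene with many premature counts for its exonic count passes that minimum at a lower exonic level. In replicate 1, SPBC3D6.16 passed at 131 exonic counts with 51 premature and 0 mature counts. The part of this minimum in the difference was not tested. Per kilobase of RefSeq exon sequence the median exonic level of the 35 was 157 CPM (counts per 1000000 exonic counts), from 33.6 to 542, against 294 in the comparison genes. Without the length the medians were 216 and 457 CPM, and 27 of the 35 lay below the comparison median. Primers were placed by gene, so these levels also depend on primer position and efficiency, and their part in the difference was not tested. Between the libraries, exonic counts scaled to the library totals were tested with a two-sided exact binomial test, adjusted by Benjamini-Hochberg over 1093 genes. This test takes in counting noise only, while exonic counts differed by more than that (chi-square of 40.2 per degree of freedom). Its calls therefore compare 2 libraries and say nothing of conditions. Of the 35, 20 were lower in replicate 2 and 0 higher, where 64.0% of all genes tested were lower and 8.78% higher. With DESeq2 size factors, which bring the median of all genes from -0.13 to 0.00 on the log2 scale, 7 were lower and 2 higher, beside 13.6% and 23.2% of all genes. Scaled to the totals, the log2 ratio of replicate 2 to replicate 1 had a median of -0.16 in the 35, and its extremes were rit1 at -0.40 and SPBC3D6.16 at 0.13. With size factors that median was -0.03.

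Set against the exonic counts of the same gene, the 35 differed from the comparison genes more in the premature than in the mature count. The median was 106 premature counts per 1000 exonic counts in replicate 1 and 98.5 in replicate 2, against 4.79 and 4.30 in the comparison genes. All 35 lay above the upper quartile of the comparison genes, 11.5, and 7 lay above the highest of them. Mature counts had a median of 25.5 and 28.3 per 1000 exonic counts, against 59.6 and 61.4. The rule used both counts, so these are descriptions, and the ratio also depends on primer position and exon length. By mature counts the 35 were not alike: 22 lay below the lower quartile of the comparison genes, 37.6 per 1000, while 12 lay above their median of 61.0. The 12 were new20, SPAC6F6.19, new13, pth4, rit1, pis1, set7, SPAC27E2.14, cwp1, hpz2, mxr1 and met8. In new20, 122 and 181 mature counts stood beside 969 and 1081 premature counts per 1000 exonic counts, the highest premature ratio of all 35. In set7, 90.6 and 73.3 mature stood beside 259 and 260 premature. At the other end, apn2 had 5.93 and 5.33 mature and 16.9 and 15.4 premature counts per 1000, nmd5 had 8.26 and 7.43 beside 17.3 and 14.1, and epr1 had 9.29 and 7.63 beside 22.0 and 20.7. In these 3 genes the mature ratio lay below the lower quartile of the comparison genes. Their premature ratios were among the lowest of the 35 but still above the comparison upper quartile of 11.5.

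**Figure D2:**
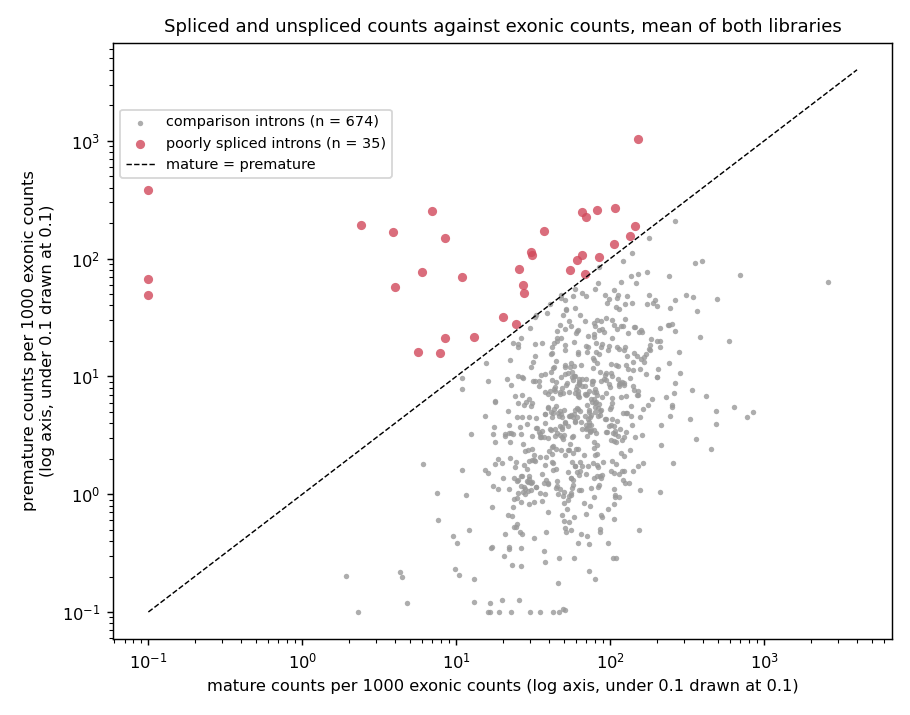
Mature (x axis) and premature (y axis) counts per 1000 exonic counts, both on log axes and as means of both libraries, for the 35 poorly spliced introns (red) and the 674 comparison introns (grey). Ratios under 0.1 are drawn at 0.1, and the dashed line marks equal counts. The rule places the 35 above that line, where 12 of them have mature ratios above the comparison median of 61.0.

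The next introns are shown because, by their sequence, an unspliced transcript of these genes would keep most or all of its reading frame. Capitals are as above.

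etp1, chrI:5037447-5037491, minus strand: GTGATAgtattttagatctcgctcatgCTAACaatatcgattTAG
SPCC569.03, chrIII:2430777-2430839, minus strand: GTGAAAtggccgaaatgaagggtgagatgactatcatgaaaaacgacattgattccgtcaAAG
mxr1, chrI:4410634-4410688, minus strand: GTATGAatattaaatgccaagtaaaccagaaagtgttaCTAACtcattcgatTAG
met6, chrII:4089319-4089360, minus strand: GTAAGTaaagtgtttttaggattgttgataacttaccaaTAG
pus2, chrII:3560685-3560721, plus strand: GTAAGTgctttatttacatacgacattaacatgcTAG

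When the annotated intron was kept in the sequence and the frame of the upstream exon was followed, 2 of the 35 could be read through to the annotated stop codon, against 7 of the 674 comparison introns (5.71% and 1.04%). Among introns with no other gene over them the shares were 22.2% of 9 and 0.70% of 285. These were etp1, whose intron of 45 nt would lengthen the frame from 616 to 631 codons, and SPCC569.03, whose intron of 63 nt would lengthen it from 316 to 337. Their 5′ ends, GTGATA and GTGAAA, began none of the comparison introns. In mxr1 the intron of 55 nt held no stop in frame, shifted the frame, and gave 187 codons in place of 170. In 4 more genes the intron lay so near the end that the shortened frame kept over 90% of its codons. The unspliced frame would have 336 of 338 codons in SPAC922.03, 489 of 501 in met6, 430 of 451 in pus2 and 38 of 41 in mfm3. In all, 7 of the 35 (20%) kept 90% or more of the frame, against 50 of 674 comparison introns (7.42%). With no other gene over the intron these shares were 44.4% of 9 and 8.77% of 285. The other 28 met a stop earlier, 18 of all 35 before 50% of the frame. The smallest shares of the frame were kept in fmd3, with 11 of 380 codons, in rit1, with 20 of 453, and in met8, with 12 of 264. The median frame kept was 35.2% against 17.2%, the latter over 670 comparison introns that met a stop. The introns lay at a median of 25.3% of the coding sequence, against 14%.

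The last set shows introns whose 5′ or 3′ ends follow the usual pattern or depart from it by 1 or a few bases, in genes with many counts. Capitals are as above, and for introns over 300 nt only the ends are shown.

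sua7, chrI:3530471-3530614, plus strand: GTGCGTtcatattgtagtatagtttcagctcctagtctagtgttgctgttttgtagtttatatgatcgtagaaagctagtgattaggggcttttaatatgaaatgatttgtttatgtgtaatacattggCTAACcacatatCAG
smp1, chrI:4166969-4167076, plus strand: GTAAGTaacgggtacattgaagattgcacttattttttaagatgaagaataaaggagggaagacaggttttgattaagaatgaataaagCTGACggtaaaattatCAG
cwp1, chrI:1864881-1864931, minus strand: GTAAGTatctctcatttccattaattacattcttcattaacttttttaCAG
pis1, chrI:650546-651192, plus strand, first 30 bases: GTGAGTattattcggaagtcttgttacagc
pis1, last 30 bases: aattgttcagtattCTGACtctttgttTAG
set7, chrIII:1881727-1882039, minus strand, first 30 bases: GTAAGGtattgtaggatagctagaagatag
set7, last 30 bases: tgtctaattataagtttaCTAACgcttTAG
ago1, chrIII:334266-334636, plus strand, first 30 bases: GTAAGTtcctagaaatcgcacatttttatg
ago1, last 30 bases: attgcatcaaattaacgccttttgttgTAG

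At the 5′ end, all 35 introns began with GT, and 16 began with GTAAGT, 45.7% against 35% of the comparison introns. GTATGT began 2 of the 35, rhp7 and pth4, against 170 of 674 (5.71% and 25.2%). A start other than GTA was found in 6 of the 35, against 21 of 674 (17.1% and 3.12%). These 6 were SPBC409.08 (GTTGGA), SPAC16E8.05c (GTTTGT), etp1 (GTGATA), SPCC569.03 (GTGAAA), sua7 (GTGCGT) and pis1 (GTGAGT), and their means ran from 54.8% in pis1 to 100%. The means of introns with the common start, GTAAGT, ran from 51.7% in cwp1 to 100% in trp663. The rule chose all 35 by this percentage, and whether it goes with the start of the intron was not tested. At the 3′ end, 24 of the 35 ended in TAG, 7 in CAG and 3 in AAG, against 536, 89 and 49 of 674. The branch motif CTAAC was present in 13 of the 35 and in 344 of 674 (37.1% and 51.0%), but among introns with no other gene over them the shares were 55.6% of 9 and 54.0% of 285. A motif of the 4 spelled above was present in 25 of the 35 and in 543 of 674 (71.4% and 80.6%). A median of 12 intron bases followed its branch adenosine in both sets. The wider pattern CTNAN, which takes in all of these, was present in 33 and in 610 (94.3% and 90.5%). The 15 bases before the last 3 held a median of 9 pyrimidines in both sets. No test was made of these shares, since introns are not replicates and the genes were chosen on these libraries.

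**Figure D3:**
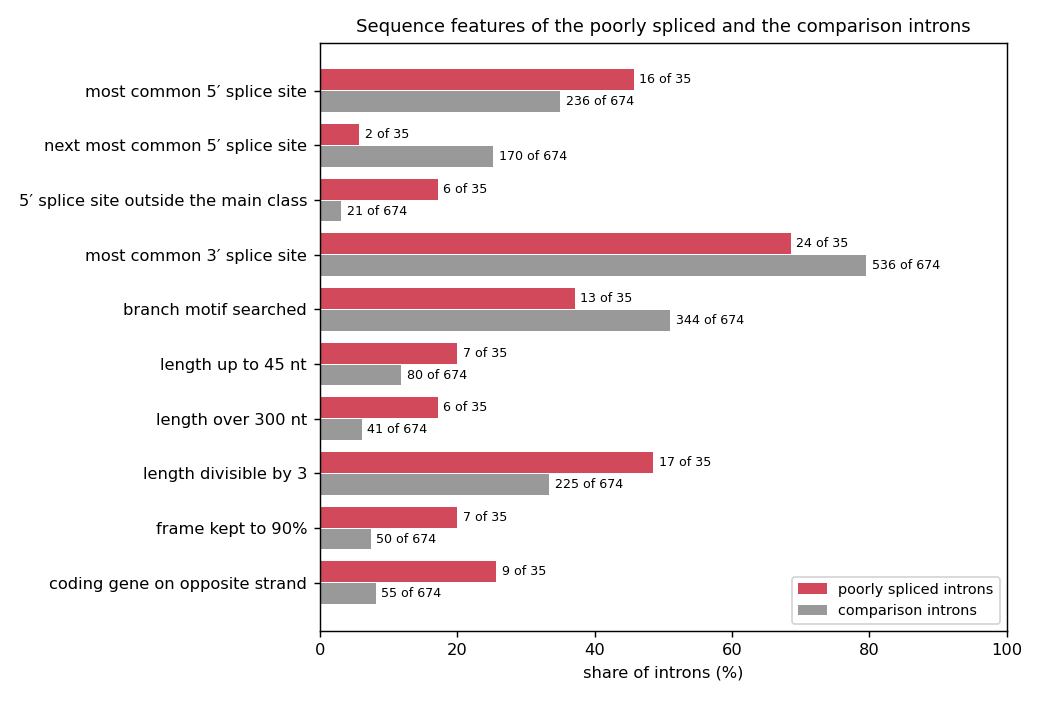
Share of introns (x axis, %) with each feature among the 35 poorly spliced introns (red) and the 674 comparison introns (grey), with the counts printed beside the bars. The named 5′ and 3′ splice sites are those most frequent among the comparison introns, and the main class of 5′ splice sites is the one that 653 of the 674 comparison introns share. The bars differ most in the next most common 5′ splice site, at 2 of 35 and 170 of 674.

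Intron lengths of the 35 were spread more widely than those of the comparison introns. The median was 89 nt against 71 nt, and the upper quartile 207 nt against 129 nt. Among introns with no other gene over them the medians were 55 nt (9 introns) and 71 nt (285), so the direction turned. Introns of up to 45 nt were 7 of the 35 (20%, against 11.9%) and introns over 300 nt were 6 (17.1%, against 6.08%). The shortest were those of pus2 and apn2, both 37 nt, and fmd3, 39 nt. The longest were pis1 at 647 nt, clr5 at 596 nt and gpa2 at 405 nt. Long and short introns were found over much of the range of percentages, with ago1, at 371 nt, at 94.6% and pis1 at 54.8%. The median GC content was 31.3%, against 28.9%. Lengths divisible by 3 were 17 of the 35, against 225 of 674 (48.6% and 33.4%). The 35 lay on chromosomes I, II and III in 20, 7 and 8 genes.

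**Figure D4:**
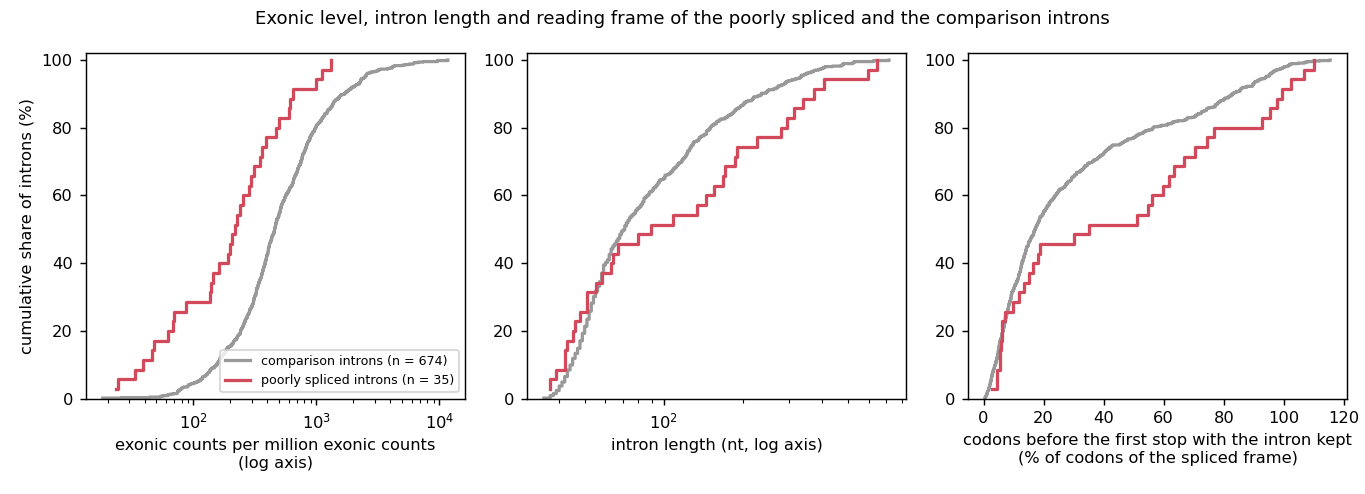
Cumulative share (y axis, %) of the 35 poorly spliced introns (red) and the comparison introns (grey) over exonic level in CPM (left, log axis), intron length in nt (middle, log axis) and the codons before the first stop with the intron kept, as a percentage of the spliced frame (right). The medians are 216 against 457 CPM, 89 against 71 nt, and 35.2% against 17.2%. The exonic level is tied to the minimum count of the rule, so the left panel is not independent of the choice of genes.

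Other annotated genes lay over many of these introns. RefSeq placed a gene on the opposite strand over the intron in 26 of the 35, against 387 of 674 (74.3% and 57.4%). In most of the 26 it was a non-coding RNA. A coding gene lay there in 9 of the 35, against 55 of 674 (25.7% and 8.16%). The 9 were trp663, SPBC3D6.16, SPAPB17E12.09, smp1, set7, apn2, rhp7, SPAC6B12.13 and new13. Without a known strand setting of the counting, reads of the 2 strands cannot be told apart here. The 9 genes with no other gene over the intron were SPAC922.03, fmd3, etp1, SPCC569.03, SPAC27E2.14, epr1, mxr1, clr5 and cwp1. They had a median of 75.9% and ran from 51.7% in cwp1 to 93.4% in SPAC922.03. The same gene, SPAC27E2.14, gives this median and that of all 35. The 9 genes with a coding gene opposite had a median of 76.0%. The rule chose all 35 by this percentage, so these medians do not test the part of opposite transcripts. In the comparison introns the median was 5.23% for 285 with no other gene over them and 9.05% for the 55 with a coding gene opposite. The part of opposite transcripts in single values, such as the 100% of trp663, SPBC3D6.16 and SPBC409.08, was not tested.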

How the data were processed

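MPE-seq libraries of 2 wild-type samples of Schizosaccharomyces pombe were analysed as 1 group, from their titles. The authors deposited whole-number counts per gene, in columns named Exonic, Mature and Premature, per the file headers. Trimmomatic 0.35, HISAT2 2.1.0 and HTSeq are named in the submitters' processing notes, with no role or order. Not given in the sources used here are the genome build, annotation, strand setting, class definitions and whether molecular identifiers were counted. Without such identifiers, reads are not independent molecules. Mature was read as spliced and premature as unspliced, from the names.

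Gene IDs were matched to the RefSeq annotation of ASM294v3 regardless of letter case (1141 of 1144), which gave symbols, product names, introns and sequences. Introns were gaps between exons of 20 nt or more. The genes, lists and tests were chosen with earlier results of these data known. Every gene that met the rule was accounted for. Values in each library were given by rule for the 10 genes with the most counts, the 5 highest and 5 lowest percentages, the 3 largest library differences, the 3 shortest and 3 longest introns, 5′ ends other than GTA and introns that could be read through; those just outside were the 3 with the highest lower-library percentage. The 4-motif branch search, the 90% frame cut, the length classes and the overlap with other genes were set after values had been seen. Roles followed RefSeq product names.

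Percentages are given per library with 95% Wilson intervals, or as mean ± SD of both. Library differences were tested per gene with a two-sided Fisher exact test (mature and premature counts of 50 or more in sum) and a two-sided exact binomial test (exonic counts of 50 or more), adjusted by Benjamini-Hochberg over all genes tested. With 1 group, edgeR had no contrast to test; DESeq2 1.42.0 and edgeR 4.0.16 (R 4.3.3) gave scaling factors only. Exonic counts differed between the libraries by more than sampling noise (chi-square of 40.2 per degree of freedom), so they were kept as 2 samples. The code of both tests was run on simulated counts with known changes, which hold counting noise only and no spread between cultures. Python 3.11.15, scipy 1.17.1, numpy 2.4.6, pandas 2.3.3 and matplotlib 3.10.9 were used.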

Additional observations from a re-analysis of the deposited data

How the results depend on the processing

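No paired analysis was possible because both libraries belong to 1 group. Of 109 recomputed values over 24 results, 69 stayed within 1.5 times a count, within the spread between the libraries or within the Wilson interval of a share, and 40 did not. The number of genes chosen was 22 at a minimum of 100 counts, 13 at 200, 55 at a threshold of 40%, and 9 with no other gene over the intron, and from 42 to 43 when 1 library was left out. Their median unspliced percentage was 77.1% at a minimum of 20, 72.1% at 100, 62.2% at 200, 61.2% and 78.9% at thresholds of 40% and 60%, 74.8% with pooled counts, and from 70.3% to 74.4% in 1 library alone. With a median-based overdispersion of 1.64, 8 genes in place of 14 differed in unspliced percentage between the libraries. Exonic counts differed in 403 genes (9 of the 35) with DESeq2 size factors and in 410 (10 of the 35) with edgeR TMM, against 795 and 20.

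The median intron length of the chosen genes was 144 nt at a minimum of 200 counts (13 genes), 55 nt with no other gene over the intron (9 genes), below the 71 nt of the comparison introns, and from 86.5 to 101 nt in 1 library alone, so the longer median does not hold in every setting. That of the comparison introns was 83.5 nt at 200 counts, 67.5 nt within the exonic range of the 35 genes, and from 69 to 70 nt in 1 library. Median GC content was 30.9% at 200 counts and from 30.9% to 31.1% in 1 library for the chosen genes. For the comparison introns it was 29.6% at 200 counts, 28.8% within the exonic range, 28.6% with no other gene over the intron and 28.9% in either library. Median exonic CPM was 296 at 200 counts and from 179 to 226 in 1 library for the chosen genes, and 790 at 200 counts, 402 within the exonic range and from 425 to 462 in 1 library for the comparison genes. Among the 9 genes with no other gene over the intron, CTAAC was present in 55.6%, 22.2% could be read through and 44.4% kept 90% of the frame, against 54.0%, 0.70% and 8.77% of the 285 comparison introns of that kind. Depth limits the values of genes with few counts most, and the cause of these shifts was not tested.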
